A study of Mus musculus with 6 samples.

Results

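The Id proteins and other textbook targets of BMP-SMAD signalling were followed in mouse liver after injection of FGF15 or FGF19. The set holds 7 genes, Id1, Id2, Id3, Id4, Smad6, Smad7 and Hamp, taken by symbol from the 12393 genes that had a probe set of their own on the Mouse Genome 430A 2.0 array. They were measured by 12 of the 20380 probe sets paired with a single gene: 3 each for Id2 and Id4, 2 for Hamp and 1 for each of the others. All 7 genes and all 12 probe sets passed the filter on low signals. Livers came from wild-type male C57Bl/6 mice 6 h after vehicle, purified FGF15 or recombinant FGF19 was given into the jugular vein. There were 6 arrays, 2 per group. No dose and no vehicle recipe is stated in the sources used here. It is also not stated whether each array is a mouse of its own, and p-values therefore reflect only how far these arrays spread, which may be technical. Because the RNA came from whole liver, fewer cells of a type and less RNA per cell cannot be told apart.

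BMP ligands bind receptors that phosphorylate SMAD1, SMAD5 and SMAD9, which enter the nucleus with SMAD4 and raise a short list of target genes, among them Id1 to Id3, Smad6 and Smad7. Id proteins have a helix-loop-helix but no DNA-binding basic region, and hold E proteins and related transcription factors away from DNA. SMAD6 and SMAD7 are inhibitory SMADs that shut the pathway off again. In liver, BMP2 and BMP6 from sinusoidal endothelial cells reach hepatocytes and set the output of hepcidin, the product of Hamp, which lowers iron entry into blood by removing the exporter ferroportin. FGF15, of the mouse, and FGF19, its human orthologue, are ileal hormones that act on hepatocytes through FGFR4 and β-Klotho.

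The upstream sequences of Id2, Id3 and Hamp are shown because Id2 and Id3 rose together with both hormones while Hamp did not pass the test. They are the 250 bases before the transcript start, 5′ to 3′ on the strand of the gene, from RefSeq (GRCm38.p6). Id2 is at chr12:25096093-25096342 (minus strand), Id3 at chr4:136143572-136143821 (plus strand) and Hamp at chr7:30944030-30944279 (minus strand). Capitals mark the GC-rich SMAD motif GGCGCC, the SMAD box CAGAC (or GTCTG on the other strand) and the STAT motif TTCNNNGAA.
Id2: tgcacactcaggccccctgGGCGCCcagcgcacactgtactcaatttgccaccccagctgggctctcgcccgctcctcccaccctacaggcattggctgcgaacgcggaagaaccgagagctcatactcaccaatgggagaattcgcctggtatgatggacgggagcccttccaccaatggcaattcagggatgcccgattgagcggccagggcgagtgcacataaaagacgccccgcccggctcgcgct
Id3: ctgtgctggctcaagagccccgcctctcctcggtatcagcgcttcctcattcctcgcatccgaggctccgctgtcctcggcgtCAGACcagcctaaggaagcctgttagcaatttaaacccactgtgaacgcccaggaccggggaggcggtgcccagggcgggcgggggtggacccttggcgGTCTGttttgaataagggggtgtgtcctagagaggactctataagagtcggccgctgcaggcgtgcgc
Hamp: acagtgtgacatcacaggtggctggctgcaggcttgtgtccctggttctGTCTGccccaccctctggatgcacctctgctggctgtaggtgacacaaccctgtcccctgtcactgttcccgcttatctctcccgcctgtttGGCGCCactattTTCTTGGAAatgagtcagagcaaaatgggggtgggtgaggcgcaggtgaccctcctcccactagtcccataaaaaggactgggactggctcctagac

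These 250 bases hold GGCGCC in Id2, from 231 to 226 bases upstream, and in Hamp, from 109 to 104 bases upstream, but not in Id3. Id3 holds 2 SMAD boxes, which begin 167 and 68 bases upstream, Hamp holds 1 and Id2 none. Hamp also has a match to TTCNNNGAA, 97 to 89 bases upstream, shortly after its GGCGCC, and no matches overlapped. Hamp is known to answer to both BMP and interleukin 6, which act through SMAD and STAT3 proteins. Over 32817 upstream windows of 250 bases in the RefSeq table, read on both strands, GGCGCC was found in 9.59%, CAGAC in 42.2% and TTCNNNGAA in 7.01%. The motif GCGNGGGCG, bound by EGR proteins, was found in 4.7% of windows and in none of these 3 genes. The window of Id4 held GGCGCC once and GCGNGGGCG 2 times, and that of Smad6 held none of the 4 motifs. Only 5 of the 7 members were read, and Id1 and Smad7 were not among them. These matches are letters in a window, and binding was not measured. 

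Signals are the deposited intensities on a linear scale, and fold changes and log2 differences are on the scale of log2(signal + 32), which understates the change of low signals. A gene is said to rise or fall at an adjusted p under 0.05 in limma, with Benjamini-Hochberg adjustment over the 9685 genes tested in each comparison. Each array had been scaled to a trimmed mean of about 200 (200.1 on every array), and median signals ran from 50.8 to 61.4. Centring arrays on their medians instead moved the median of all genes from -0.05 to 0.07 with FGF15 and from -0.07 to 0.07 with FGF19, and the share of called genes that rose from 47.0% to 73.9% and from 46.4% to 78.7%. FGF19 replicate 1 stood apart in control probe sets. Its 18S rRNA signal was 32.3, where the remaining arrays had 4.25 to 5.82, and its 3′ to 5′ ratio for β-actin was 1.63, where theirs was at most 1.39. Alb, a defining marker of hepatocytes, read 10507 and 9934 with vehicle, 8880 and 9519 with FGF15, and 6159 and 9377 with FGF19. The low FGF19 value is that of replicate 1, and Alb did not pass with either hormone (adjusted p = 0.58 and 0.1).

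Id2 and Id3 rose with both hormones, and Id1 and Smad7 with FGF19. With FGF15, 2 of 7 members rose and 0 fell, where 5.91% of all genes tested rose, 6.67% fell and 12.6% did either. With FGF19, 4 of 7 rose and 0 fell, where 6.29% of all genes rose, 7.27% fell and 13.6% did either. Both FGF15 arrays were above both vehicle arrays for 6 of 7 members and below for 0 (22.2% and 32.7% of all genes). Both FGF19 arrays were above both vehicle arrays for 4 and below for 0 (21.4% and 37.2% of all genes). The median log2 difference of the members was 0.39 with FGF15 and 0.51 with FGF19, beside -0.05 and -0.07 over all genes. Both comparisons use the same vehicle arrays. The members were chosen with earlier results of these data known, so these counts and medians are no independent test of the set. Between the hormones, Id1 was higher with FGF19 than with FGF15, 1 of 7 members against a background of 2.41%, and 0 of 7 were lower, where 1.89% of all genes were lower and 4.30% differed either way. Both FGF19 arrays were above both FGF15 arrays for 1 member and below for 5 (20.1% and 25.8% of all genes). At an unadjusted p under 0.05 in limma, 3 of 7 members (Id2, Id3 and Id4) were lower with FGF19 than with FGF15, where 9.03% of all genes were, and 0 fell against vehicle with FGF15 or FGF19, where 15.0% and 17.1% of all genes did.

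**Figure D1:**
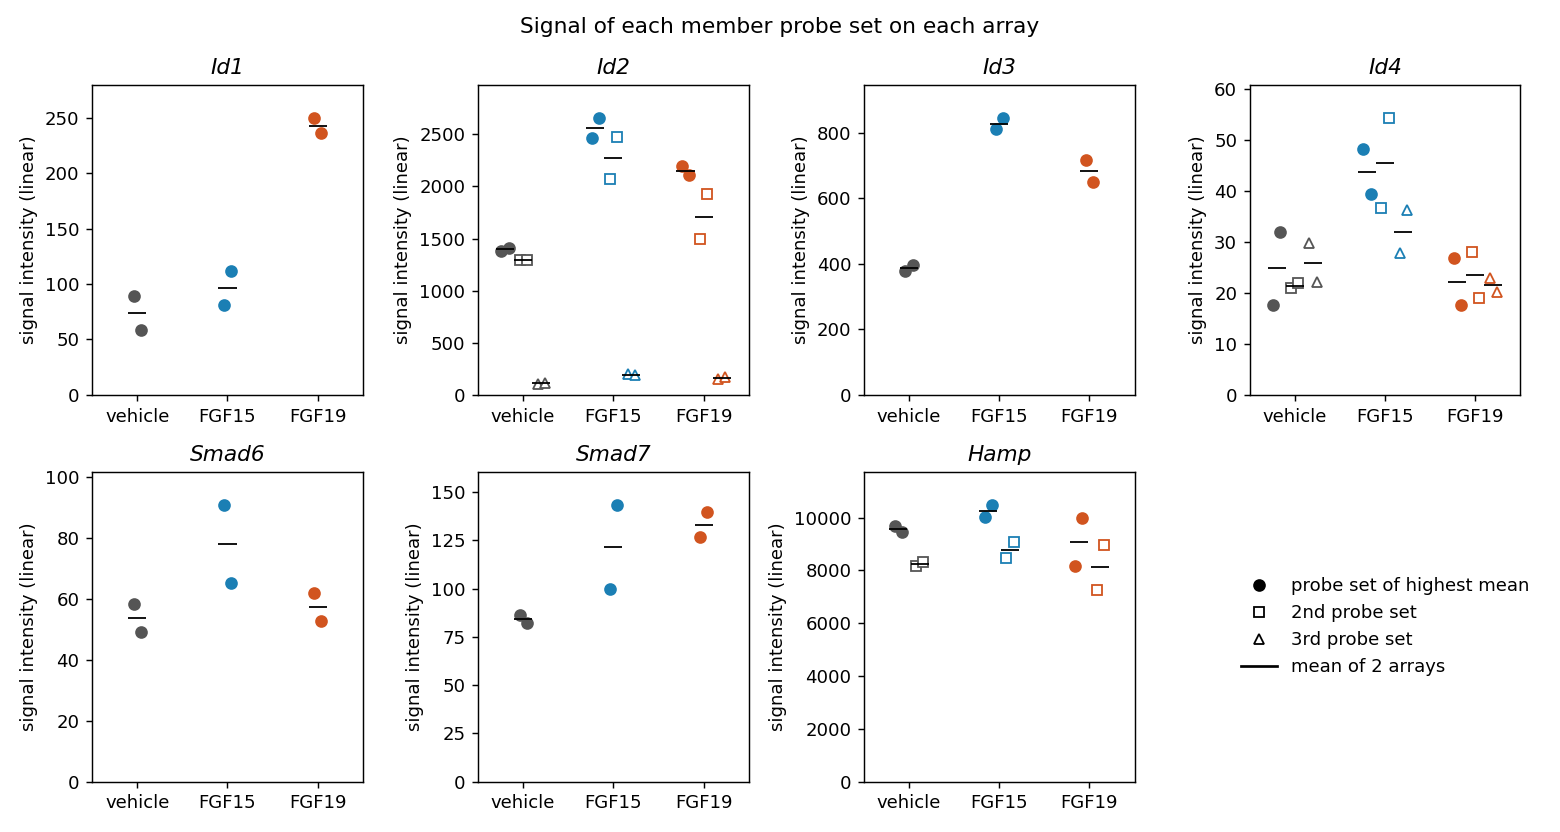
Signal intensity (linear, axes from 0) of each member probe set on each of the 6 arrays, 1 panel per gene, with filled circles for the probe set of highest mean, open symbols for the others and a bar for the mean of the 2 arrays of a group. Id1 stands apart on the FGF19 arrays (249.5 and 235.9), Id2 and Id3 are higher on all 4 hormone arrays than on both vehicle arrays, and Hamp overlaps between vehicle and FGF19.

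Id1, a short-lived inhibitor of E proteins and one of the fastest readouts of BMP signalling, answered to FGF19. Its probe set (1425895_a_at) read 89.0 and 58.7 with vehicle, 81.1 and 111.6 with FGF15, and 249.5 and 235.9 with FGF19. The FGF19 arrays lay above all 4 others, while FGF15 and vehicle overlapped. The log2 difference from vehicle was 1.39 ± 0.16 with FGF19 (SE, n = 2 arrays per group, adjusted p = 4.0e-04), 2.62-fold, and the ratio of the mean signals was 3.29. With FGF15 it was 0.28 ± 0.16 (adjusted p = 0.31), with a 95% interval of -0.08 to 0.64. FGF19 exceeded FGF15 by 1.11 ± 0.16, 2.16-fold (adjusted p = 0.0033). In the 6 fits that each left out 1 array this last difference ran from 0.94 to 1.28 and passed in each, with adjusted p = 0.0453 at most, which was the fit without FGF19 replicate 1. The difference of FGF19 from vehicle was 1.35 without that replicate (adjusted p = 0.0073).

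Id2, the Id protein of lymphoid and fat cell development, was higher with both hormones on its brightest probe set (1435176_a_at). The signals were 1383 and 1410 with vehicle, 2465 and 2656 with FGF15, and 2192 and 2115 with FGF19. The groups did not overlap, and FGF15 was the highest. The rise was 0.86 ± 0.07 on the log2 scale with FGF15, 1.81-fold (adjusted p = 2.6e-05), and 0.61 ± 0.07 with FGF19, 1.53-fold (adjusted p = 2.3e-04). FGF19 stood below FGF15 by -0.25 ± 0.07 (adjusted p = 0.071), which did not pass. That difference passed with quantile normalization (adjusted p = 0.017), with the stricter filter on low signals (0.047) and with the mean of the probe sets (0.0495).

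The other probe sets of Id2 share its transcripts and are not replicates. The probe set 1422537_a_at read 1292 and 1296 with vehicle, 2070 and 2475 with FGF15, and 1494 and 1925 with FGF19, and 1453596_at read 108.1 and 111.4, 201.8 and 187.0, and 152.5 and 167.6. On both, every hormone array exceeded both vehicle arrays. In a fit over 16969 probe sets, the differences with FGF15 were 0.79 ± 0.12 and 0.67 ± 0.10 (adjusted p = 0.0024 and 0.0028). Those with FGF19 were 0.38 ± 0.12, which did not pass (adjusted p = 0.066), and 0.44 ± 0.10 (adjusted p = 0.025). Over the 12 member probe sets, 4 rose and 0 fell with FGF15, where 4.73% of all probe sets rose, 5.81% fell and 10.5% did either. With FGF19 4 rose and 0 fell, where 5.15% rose, 6.34% fell and 11.5% did either. Between the hormones 1 was higher with FGF19, that of Id1, and 0 were lower, where 1.97% of all probe sets were higher, 1.34% lower and 3.31% either.

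Id3, the closest companion of Id1 in endothelium and in early development, had the largest rise of the members with FGF15. Its signals (1416630_at) were 377.5 and 396.8 with vehicle, 811.0 and 844.2 with FGF15, and 717.2 and 650.9 with FGF19. The order was that of Id2, with no overlap between groups. The rise was 1.04 ± 0.07 with FGF15, 2.05-fold (adjusted p = 1.8e-05), and 0.77 ± 0.07 with FGF19, 1.71-fold (adjusted p = 1.2e-04). FGF19 stood below FGF15 by -0.26 ± 0.07, which did not pass (adjusted p = 0.083). The rises of Id2 and Id3 with each hormone passed in every one of the 12 other settings and in the 6 fits without 1 array.

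Id4, which acts in the nervous system and in other tissues, had low signals on all 3 of its probe sets, between 17.6 and 54.2. The one of highest mean (1450928_at) read 17.7 and 31.9 with vehicle, 48.2 and 39.3 with FGF15, and 26.8 and 17.6 with FGF19. The FGF15 arrays were above the rest, and vehicle and FGF19 overlapped. The log2 difference was 0.42 ± 0.19 with FGF15 (adjusted p = 0.2) and -0.06 ± 0.19 with FGF19 (adjusted p = 0.87), and neither passed. Its other probe sets gave 0.53 ± 0.18 and 0.14 ± 0.17 with FGF15, also without passing.

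**Figure D2:**
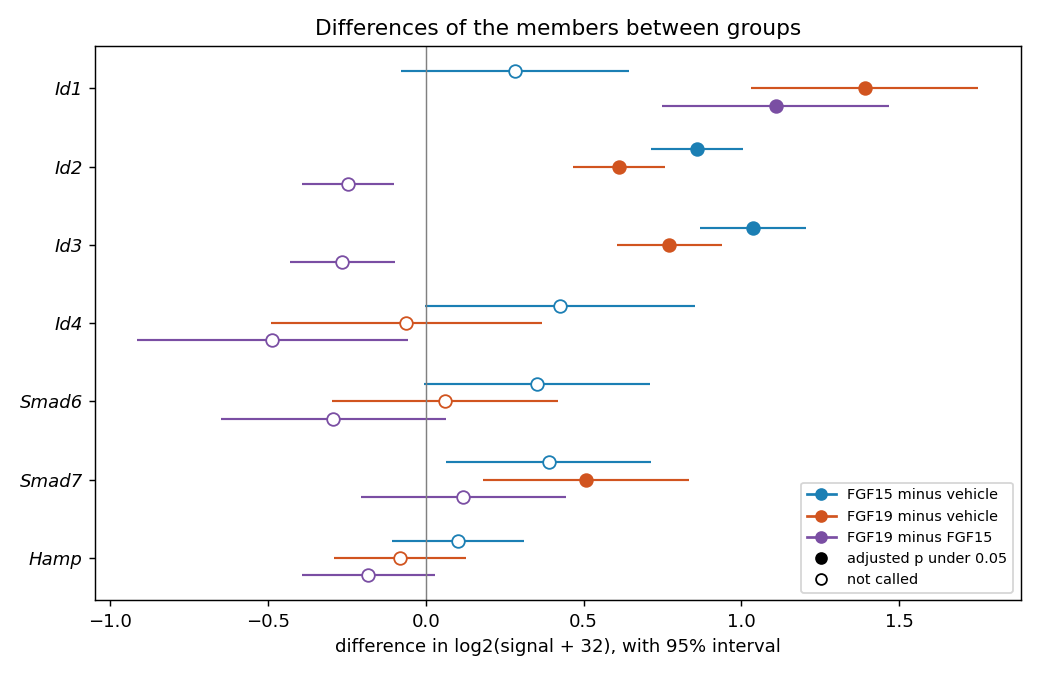
Differences in log2(signal + 32) of the 7 members for the 3 comparisons, with limma's 95% intervals and filled points for an adjusted p under 0.05. Id2 and Id3 are filled for both hormones against vehicle, Id1 for FGF19 against vehicle and against FGF15, and Smad7 for FGF19 against vehicle alone.

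Smad6, the inhibitory SMAD that acts mainly on BMP receptors, did not pass with either hormone. Its probe set (1422771_at) read 58.5 and 49.0 with vehicle, 90.9 and 65.3 with FGF15, and 62.0 and 52.8 with FGF19. The FGF15 arrays lay above the vehicle arrays, but the gap between the FGF15 arrays was larger than the gap to vehicle. The log2 difference was 0.35 ± 0.16 with FGF15 (adjusted p = 0.2, 95% interval -0.0049 to 0.71) and 0.06 ± 0.16 with FGF19 (adjusted p = 0.84, 95% interval -0.30 to 0.42).

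Smad7, which inhibits both TGF-β and BMP receptors, read 86.1 and 82.0 with vehicle, 99.7 and 143.3 with FGF15, and 126.7 and 139.6 with FGF19 (1423389_at). Every hormone array was above both vehicle arrays, and the hormones overlapped. The difference was 0.51 ± 0.15 with FGF19, 1.42-fold (adjusted p = 0.046), and 0.39 ± 0.15 with FGF15 (adjusted p = 0.12). The call with FGF19 lay close to the threshold and was lost on leaving out vehicle replicate 1 (adjusted p = 0.135), vehicle replicate 2 (0.152), FGF19 replicate 1 (0.124) or FGF19 replicate 2 (0.207). It also ended without the filter (0.0943), without the intensity trend (0.0923) and in the fit over all probe sets (0.0527). With FGF15, Smad7 passed without FGF15 replicate 1 (adjusted p = 0.0303) and with centring on medians (0.0435).

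Hamp, which encodes hepcidin, had high signals in every group and did not pass in any of the 3 comparisons. On 1419196_at it read 9678 and 9446 with vehicle, 10039 and 10480 with FGF15, and 8180 and 9989 with FGF19. Vehicle lay within the span of the FGF19 arrays. These signals were within the range of Alb (6159 to 10507), while Apoa1, another hepatocyte marker, read up to 14544. Whether probe sets this bright still follow changes in RNA was not tested. The differences were 0.10 ± 0.09 with FGF15 (adjusted p = 0.54, 95% interval -0.11 to 0.31) and -0.08 ± 0.09 with FGF19 (adjusted p = 0.62, 95% interval -0.29 to 0.13). The second probe set (1419197_x_at) gave 0.09 ± 0.10 and -0.03 ± 0.10. FGF19 replicate 1, the array that stood apart in control probe sets, had the lowest value, and the fit without FGF19 replicate 2, which leaves it as the only FGF19 array, called Hamp lower than vehicle by -0.22 (adjusted p = 0.031) and lower than FGF15 by -0.33 (adjusted p = 0.012). Without replicate 1 the difference from vehicle was 0.06 (adjusted p = 0.54). Quantile normalization gave 0.23 with FGF15 (adjusted p = 0.003) and 0.22 with FGF19 (adjusted p = 0.0037), so the direction of Hamp with FGF19 turned with the scaling.

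Over the 6 arrays, Id2 and Id3 followed each other closely (Pearson r = 0.997 of log2 values), while Id1 had r = 0.42 with Id2 and 0.43 with Id3, and 0.76 with Smad7. These coefficients describe 3 groups of 2 arrays with shared scaling and carry no test. Among genes that passed the filter and varied at least by 0.5 of the SD of the member, those most like Id1 were Cidec, a lipid droplet protein (r = 0.981), Gcc1, of the Golgi (0.971), and Nrg4, a secreted ligand of ErbB receptors (0.967). Id3 was nearest to Ireb2 (0.997), an iron-responsive RNA-binding protein, and to Sec24d (0.997), of the coat of vesicles that leave the endoplasmic reticulum. Id2 was nearest to Gnpnat1 (0.998), of hexosamine synthesis, then Id3, and Smad7 to Serpina6 (0.996), Slc35a1 (0.988) and Ptpn11 (0.985). Many genes had such coefficients: 117 of 3751 candidates exceeded 0.95 with Id2, 86 of 2396 with Id3, 23 of 6478 with Smad7 and 15 of 871 with Id1.

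The other genes of the pathway were taken from lists. Of all genes tested, 5.91% rose and 6.67% fell with FGF15, and 6.29% rose and 7.27% fell with FGF19. The counts of every list here and below stand beside these shares, and a count near them is no result about its list. Among 13 measured ligands of the BMP and TGF-β family, 2 rose and 1 fell with FGF15 and 0 rose and 2 fell with FGF19, with medians of 0.02 and -0.15. Bmp2 and Bmp6, the ligands that set hepcidin in liver, did not pass. Bmp2 read 201.3 and 222.9 with vehicle, 257.1 and 243.4 with FGF15, and 254.9 and 187.0 with FGF19, with differences of 0.21 ± 0.13 and 0.04 ± 0.13 (adjusted p = 0.33 and 0.87). Bmp6 changed by 0.06 ± 0.17 and -0.15 ± 0.17, which did not pass either (adjusted p = 0.87 and 0.6). Gdf2, which encodes BMP9, a ligand made in liver, fell from a mean signal of 161.3 to 107.0 with FGF15 (-0.47 ± 0.12, adjusted p = 0.032) and 102.5 with FGF19 (-0.53 ± 0.12, adjusted p = 0.019). The fall with FGF15 did not pass when any of its 4 arrays was left out (adjusted p = 0.0786 to 0.176), or with quantile normalization, cyclic loess, centring on medians or no filter (0.0508 to 0.078), and that with FGF19 ended without either vehicle replicate or FGF19 replicate 1 (adjusted p = 0.054 to 0.133) and with centring on medians (0.0566).

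The activin subunit genes moved differently. Inhbe, a hepatocyte subunit, read 261.9 and 246.7 with vehicle, 638.1 and 679.7 with FGF15, and 186.6 and 167.7 with FGF19. It rose by 1.27 ± 0.09 with FGF15 and fell by 0.45 ± 0.09 with FGF19, and the hormones differed by -1.72 ± 0.09 (adjusted p = 3.5e-06). The fall with FGF19 ended without vehicle replicate 1 (adjusted p = 0.06) and with centring on medians (0.0531). Inhba rose with FGF15 (1.03 ± 0.24, adjusted p = 0.02), but did not pass when vehicle replicate 1 or FGF15 replicate 2 was left out (adjusted p = 0.117 and 0.11) or without the filter on low signals.

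Of 13 receptors, 0 rose and 1 fell with FGF15 and 1 rose and 0 fell with FGF19, each time Tgfbr2, the type II receptor of TGF-β. On 1426397_at it read 530.8 and 512.4 with vehicle, 407.9 and 435.6 with FGF15, and 683.6 and 684.1 with FGF19. On this probe set the hormones lay on opposite sides of vehicle and differed by 0.66 ± 0.07 (adjusted p = 5.6e-04). The fall with FGF15 (-0.29 ± 0.07, adjusted p = 0.026) was lost on leaving out either vehicle replicate or FGF15 replicate 1 (adjusted p = 0.0922 to 0.157) and with centring on medians (0.229), and the rise with FGF19 (0.37 ± 0.07, adjusted p = 0.007) ended without vehicle replicate 2 (0.0613). With the mean of its probe sets the differences with FGF15, with FGF19 and between the hormones were smaller (-0.24, 0.09 and 0.33). None of these 3 calls then passed (adjusted p = 0.137, 0.557 and 0.0967). The BMP receptor gene Bmpr1a did not pass (-0.36 ± 0.11 with FGF15, adjusted p = 0.059, and -0.14 ± 0.11 with FGF19, adjusted p = 0.45).

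Of 5 measured SMAD transducers, 1 rose with each hormone and 0 fell. This was Smad1, a receptor-regulated SMAD of the BMP branch, at 228.8 and 228.8 with vehicle, 287.7 and 320.2 with FGF15, and 438.2 and 478.0 with FGF19. The groups did not overlap. Smad1 rose by 0.91 ± 0.09 with FGF19, 1.88-fold (adjusted p = 1.0e-04), and by 0.36 ± 0.09 with FGF15 (adjusted p = 0.022), and FGF19 exceeded FGF15 by 0.55 ± 0.09 (adjusted p = 0.0052). The rise with FGF15 was lost on leaving out either vehicle replicate or FGF15 replicate 2 (adjusted p = 0.0967 to 0.126) and with the mean of probe sets (0.399), and the difference between hormones without FGF19 replicate 2 (0.0531). A second probe set of Smad1 (1416081_at) did not pass and gave -0.10 with FGF15 and 0.32 with FGF19. Smad5 and Smad4 did not pass.

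Of 13 inhibitors of the pathway, 2 rose and 0 fell with FGF15 and 2 rose and 1 fell with FGF19, where centring on medians gave 4 and 1. The risers were Nedd4l, a ubiquitin ligase of activated SMADs, at 0.31 ± 0.08 with FGF15 (adjusted p = 0.031) and 0.81 ± 0.08 with FGF19 (adjusted p = 1.4e-04), and Skil, a SMAD corepressor, at 0.37 ± 0.09 (adjusted p = 0.023) and 0.57 ± 0.09 (adjusted p = 0.0022). Both calls with FGF15 ended with the mean of probe sets and without vehicle replicate 1 or vehicle replicate 2, and also without FGF15 replicate 1 for Nedd4l (adjusted p = 0.119 to 0.15) or without FGF15 replicate 2 for Skil (0.0821 to 0.131). A second probe set of Nedd4l did not pass (0.17 with FGF15 and 0.10 with FGF19). Tob1, an antiproliferative protein that holds back SMADs, fell with FGF19 (-0.49 ± 0.09, adjusted p = 0.0051, but 0.0534 without vehicle replicate 2).

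Of 14 other SMAD targets, 1 rose and 4 fell with FGF15 (median -0.13) and 5 rose and 2 fell with FGF19 (median 0.30). These genes also answer to many other signals. With 1 array of the comparison left out, 2 to 3 rose and 1 to 2 fell with FGF19, and 1 rose and 2 to 4 fell with FGF15. Klf10, an early TGF-β response gene, read 139.4 and 142.6 with vehicle, 273.9 and 258.7 with FGF15, and 199.7 and 198.7 with FGF19. It rose by 0.79 ± 0.09 with FGF15 (adjusted p = 3.7e-04) and by 0.42 ± 0.09 with FGF19 (adjusted p = 0.013), which did not pass when any of its 4 arrays was left out (0.0558 to 0.0746). Junb, of the AP-1 family, read 295.3 and 309.4 with vehicle, 295.1 and 307.4 with FGF15, and 535.5 and 668.2 with FGF19. Like Id1 it was higher on the FGF19 arrays than on all others, by 0.92 ± 0.10 against vehicle (adjusted p = 2.9e-04) and 0.92 ± 0.10 against FGF15 (adjusted p = 6.3e-04).

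Cdkn1a, which encodes the cell cycle inhibitor p21, fell by 1.09 ± 0.09 with FGF15 and rose by 0.82 ± 0.09 with FGF19 (adjusted p = 6.1e-05 and 3.8e-04), although another probe set did not pass with FGF19 (0.18). Msx1, a homeobox gene, fell with both hormones on an _s_at probe set that can bind related transcripts (-1.27 ± 0.14 and -0.76 ± 0.14, adjusted p = 2.8e-04 and 0.0059). Its other probe set gave 0.34 and 0.38, which did not pass. Both falls ended with the mean of its probe sets, and that with FGF19 also without FGF19 replicate 2 (adjusted p = 0.0516). Atoh8, a BMP target of hepatocytes, had signals of 3.97 to 39.2 and did not pass.

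**Figure D3:**
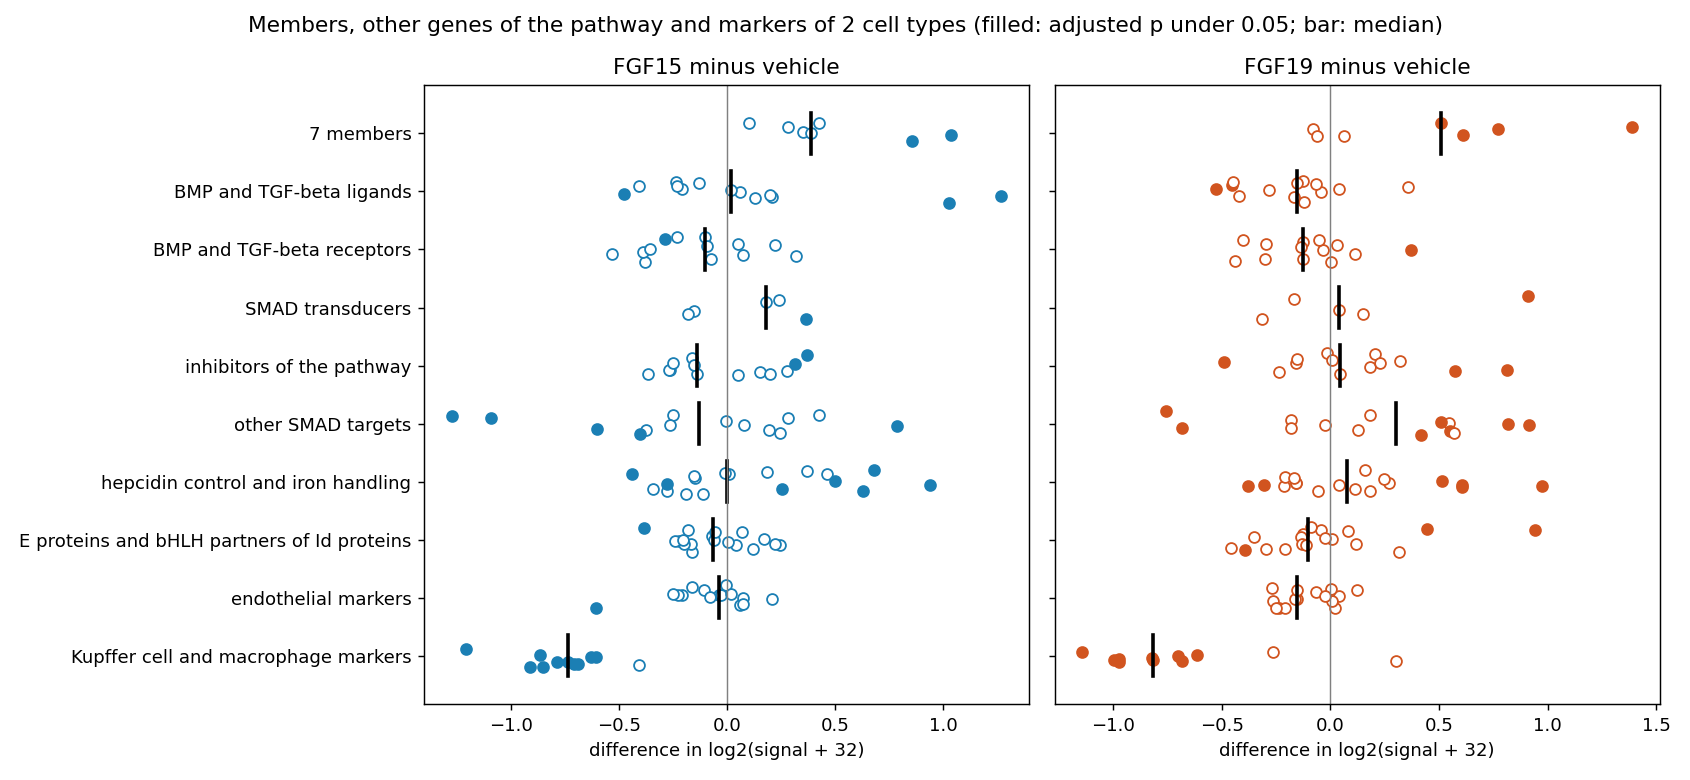
Differences in log2(signal + 32) from vehicle with FGF15 (left) and FGF19 (right) for the 7 members, 7 lists of pathway genes and the markers of 2 cell types, with 1 point per gene, filled at an adjusted p under 0.05, and a bar for the median of each list. The medians of the members, 0.39 and 0.51, lie to the right of 0, those of the Kupffer cell markers, -0.74 and -0.81, to the left, and those of the endothelial markers are -0.04 and -0.15.

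Genes that control hepcidin or handle iron were read beside Hamp. Of 18 measured, 5 rose and 2 fell with FGF15 (5.91% and 6.67% of all genes). With FGF19 4 rose and 2 fell (6.29% and 7.27% of all genes). With 1 array of the comparison left out, 4 to 5 rose and 1 to 2 fell with FGF15, and 4 rose and 0 to 4 fell with FGF19. The 4 that fell were in the fit without FGF19 replicate 2, which leaves replicate 1 alone, and 0 fell when any of the other 3 arrays was left out. With centring on medians 7 rose and 1 fell with FGF15 and 7 rose and 0 fell with FGF19. Hamp2, a mouse copy of Hamp, read 1127 and 1174 with vehicle, 2368 and 2106 with FGF15, and 2236 and 2350 with FGF19 on 1436643_x_at. The hormone arrays did not overlap with vehicle, and the rises were 0.94 ± 0.07 (1.92-fold, adjusted p = 3.2e-05) and 0.98 ± 0.07 (1.97-fold, adjusted p = 2.2e-05), which passed in all alternatives. Probe sets of the _x_at class can bind related transcripts, and Hamp and Hamp2 are close copies, so the source of this signal is uncertain. The other probe set of Hamp2 read 1.51 to 5.73, under the filter.

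Slc40a1 encodes ferroportin, the exporter that hepcidin removes. It read 1095 and 1092 with vehicle, 795.3 and 803.1 with FGF15, and 856.3 and 902.0 with FGF19. It fell with FGF15 (-0.44 ± 0.06, adjusted p = 0.0017) and with FGF19 (-0.31 ± 0.06, adjusted p = 0.011). The fall with FGF19 was lost on leaving out either vehicle replicate or FGF19 replicate 1 (adjusted p = 0.0575 to 0.0847) and with centring on medians (-0.16, adjusted p = 0.207), while a second probe set fell with both hormones (-0.48 and -0.67, adjusted p = 0.0037 and 5.9e-04). Macrophages express Slc40a1 as well as hepatocytes, and the Kupffer cell markers fell beside it. Of 11 such markers, 10 fell with FGF15 and 9 with FGF19 (6.67% and 7.27% of all genes), and 0 rose. Mpeg1 (-1.21 and -0.70), Clec4f and C1qc were among those that fell. Marco, which was not called with FGF19, read 64.9 and 77.0 with vehicle, 25.5 and 37.0 with FGF15, and 100.5 and 88.8 with FGF19. Between the hormones 2 of the 11 were higher with FGF19. The summed signal of the 11 markers was 6427 to 6525 with vehicle, 3484 to 3608 with FGF15 and 3499 to 3534 with FGF19. Their part in the fall of Slc40a1 was not tested.

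Tfrc, the transferrin receptor of iron uptake, read 239.5 and 227.0 with vehicle, 356.3 and 329.5 with FGF15, and 387.4 and 357.2 with FGF19, and rose by 0.50 ± 0.08 and 0.61 ± 0.08 (adjusted p = 0.004 and 0.0012). These calls ended with the mean of its probe sets (0.27 and 0.39, adjusted p = 0.203 and 0.0717). Ireb2, which stabilises Tfrc mRNA when iron is low, rose by 0.68 ± 0.07 and 0.51 ± 0.07 (adjusted p = 1.7e-04 and 8.6e-04). Tfr2, an iron sensor of hepatocytes, did not pass (-0.15 ± 0.06 and -0.17 ± 0.06, adjusted p = 0.17 and 0.12). Hfe read 474.4 and 454.9 with vehicle, 384.2 and 370.4 with FGF15, and 409.7 and 385.7 with FGF19. Both arrays of each hormone lay below both vehicle arrays, as for 32.7% of all genes with FGF15 and 37.2% with FGF19. This order alone is no result about Hfe.

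**Figure D4:**
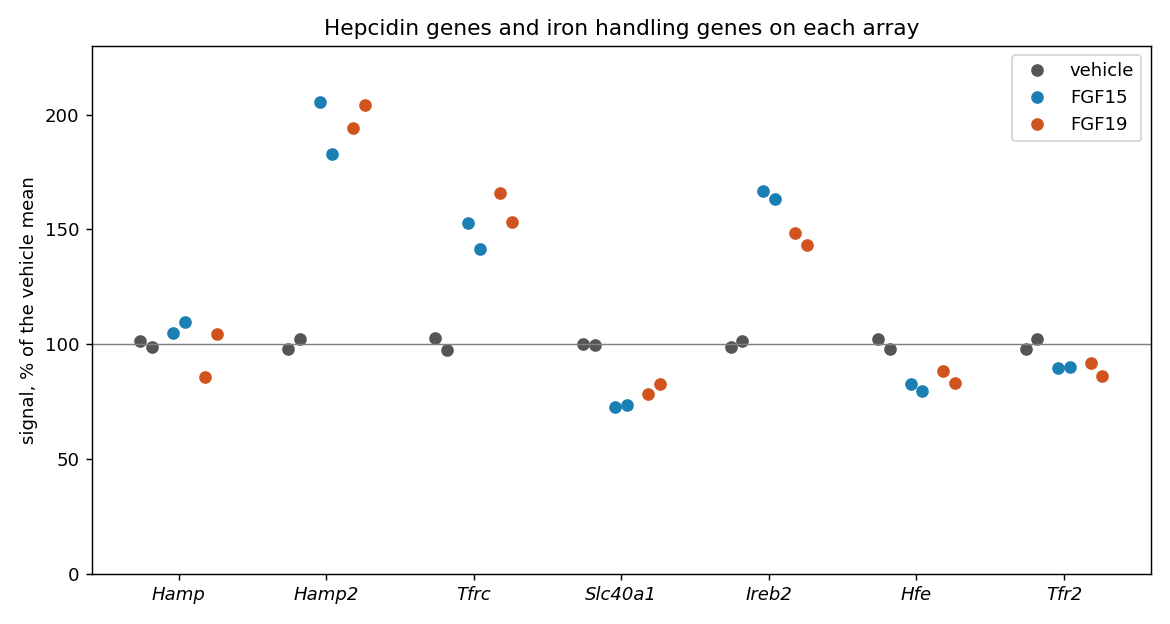
Signal of Hamp, Hamp2 and 5 iron handling genes on each array, in percent of the mean of the vehicle arrays of that gene (axis from 0). Hamp lies between 85.5% and 109.6%, Hamp2 between 183.0% and 205.8% on the hormone arrays, and Slc40a1 between 72.7% and 82.5% on them, where the fall with FGF19 is not called once arrays are centred on their medians.

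Among 18 measured E proteins and other partners of Id proteins, 0 rose and 1 fell with FGF15 and 2 rose and 1 fell with FGF19. The E protein genes Tcf3, Tcf4 and Tcf12, whose products Id proteins bind, did not pass with either hormone, at differences between -0.24 and -0.05. Ets2, an ETS factor and so of a family that Id proteins can bind, read a mean of 123.6 with vehicle, 152.6 with FGF15 and 266.8 with FGF19, and rose with FGF19 (0.94 ± 0.10, adjusted p = 1.7e-04) and against FGF15 (0.70 ± 0.10, adjusted p = 0.0025). Bhlhe40, a repressor of the same helix-loop-helix class, rose with FGF19 (0.44 ± 0.09, adjusted p = 0.0092, lost on leaving out vehicle replicate 2 or FGF19 replicate 1). Hes6 fell with both (-0.38 ± 0.10 and -0.39 ± 0.10, adjusted p = 0.03 and 0.026). Its probe set (1436050_x_at) is of the _x_at class, which can bind related transcripts. The falls of Hes6 ended with centring on medians (adjusted p = 0.137 and 0.155), that with FGF15 also with no filter and without vehicle replicate 2 or FGF15 replicate 1, and that with FGF19 without vehicle replicate 2, FGF19 replicate 1 or FGF19 replicate 2.

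Id1 and Id3 are also expressed in endothelium, so markers of that cell type were read beside them. For the marker counts, the shares over all genes were 5.91% rose and 6.67% fell with FGF15, and 6.29% and 7.27% with FGF19. The list of 15 includes Bmp2, Bmp6 and Eng, which are also on the pathway lists. Of the 15, 0 rose with either hormone, 1 fell with FGF15 (Lyve1, -0.61 ± 0.09, adjusted p = 0.0017) and 0 fell with FGF19, and their summed signal was 2536 to 2572 with vehicle, 2328 to 2410 with FGF15 and 2348 to 2413 with FGF19. Of 10 stellate cell markers, 4 fell with FGF15 and 3 with FGF19, Col3a1 and Rgs5 with both, and 0 rose, with sums of 3263 to 3349, 2631 to 2718 and 2772 to 2937. With 1 array of the comparison left out, 2 to 4 fell with FGF15 and 1 to 2 with FGF19, and with centring on medians FGF15 gave 4 lower and 1 higher and FGF19 gave 1 lower and 2 higher. The fall of Rgs5 with FGF19 was lost on leaving out either vehicle replicate or FGF19 replicate 2 (adjusted p = 0.0677 to 0.0702), with centring (0.127) and without the intensity trend (0.0568). The part of changes in cell makeup in the rises of Id2 and Id3 was not tested. Of 8 hepatocyte markers 1 fell with FGF15 and 0 fell with FGF19. The one that fell was Tat (-0.73, adjusted p = 3.7e-04, and -0.74 to -0.72 with 1 array left out). With FGF19, cyclic loess gave 1 higher and 3 lower, and centring on medians gave 1 higher and 0 lower. Their summed signal was 68390 to 69859 with vehicle, 59014 to 63014 with FGF15, and 52405 and 65124 on the FGF19 arrays. With FGF19, 5 fell in the fit without FGF19 replicate 2, 1 rose and 1 fell without FGF19 replicate 1, and 0 fell without either vehicle replicate. Of 4 neutrophil markers 2 fell with FGF15 and 1 with FGF19, which was S100a8 and was lost on leaving out either vehicle replicate or FGF19 replicate 1 (adjusted p = 0.0542 to 0.0786) and with centring (0.0525). Of 2 erythroid markers 1 rose with FGF19, which was Alas2 and was lost on leaving out vehicle replicate 1 or FGF19 replicate 2 (adjusted p = 0.145 and 0.109) and without the intensity trend (0.0945). None of 3 cholangiocyte and 6 lymphocyte markers passed.

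The arrays also carried known readouts of the hormones. Egr1, an immediate early gene, rose 2.73-fold with FGF15 and 20.7-fold with FGF19, and Dusp6, a phosphatase induced by ERK, rose 2.22-fold and 4.19-fold. Both were higher with FGF19 than with FGF15 (log2 differences of 2.92 ± 0.09 and 0.92 ± 0.08, adjusted p = 1.3e-07 and 1.1e-04). Nr0b2 rose 2.03-fold with FGF15 and 2.04-fold with FGF19, and its difference between the hormones did not pass (0.01 ± 0.09, adjusted p = 0.98). Cyp7a1 fell 21.7-fold and 39.6-fold, and was lower with FGF19 than with FGF15 (-0.87 ± 0.09, adjusted p = 3.7e-04). Id1 and Smad1 were higher with FGF19 than with FGF15, and Id2 and Id3 were not. A link of the members to these readouts was not tested.

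Without the intensity trend of the variance, which lowers the number of genes called in every comparison, several of the calls given above for pathway genes were also lost. With FGF15 these were Gdf2, Inhba, Tgfbr2, Smad1, Nedd4l, Skil and Hes6. With FGF19 they were Tgfbr2, Tob1, Bhlhe40, Hes6 and Slc40a1, and between the hormones Smad1.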

How the data were processed

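The authors deposited linear signal intensity values, 1 for each probe set on each array, from the Mouse Genome 430A 2.0 array with biotin-labelled RNA, per the labels and the values. Each array had been scaled to one trimmed mean. The software that summarised the probes is not given in the sources used here.

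Signals were converted to log2(signal + 32). Of 22690 probe sets, 64 were controls and 20380 had 1 gene, 20351 of them named through Entrez identifiers in RefSeq tables. Each gene was represented by its probe set of highest mean, and genes whose mean log2 value lay under the 25th percentile (a signal of about 14.0) were left out, which left 9685. Differences were fitted with limma 3.58.1 in R 4.3.3 (lmFit, eBayes with an intensity trend), all 6 arrays in 1 model with group as its only term, two-sided, with 3 degrees of freedom from the residuals and 6.83 from the prior. The same fit on 16969 probe sets served for the other probe sets of a member. Precision is limited by having 2 arrays a group, and the median SE of a log2 difference was 0.13. On simulated data of 9685 genes, FGF15 against vehicle, the fit recovered 73% of 100 changes of 1 on the log2 scale and 16% of 100 changes of 0.5, with 2 false calls. Only these genes were changed, whereas 12.6% of genes were called with FGF15 in the data. The recovery rates therefore need not hold for the data.

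There were 7 pathway lists and 8 marker lists with 195 entries, of which 153 were tested. Genes chosen for naming were all members, and up to 4 called genes of each pathway list and 3 of each marker list by smallest p against vehicle. The 3 genes most like each called member and 5 genes fixed for checks were added. Not every gene so chosen is given above. Bmp2, Bmp6, Bmpr1a, Smad4, Smad5, Atoh8, Tfr2, Hfe and the E proteins were named for their roles after values were seen. The members, lists and motifs were chosen with earlier results of these data known. The alternatives were other pseudocounts, normalizations, filters, rules for probe sets, variance priors and sets of arrays, the replicate number as a block, and each array left out in turn. Only cyclic loess was chosen after seeing the data. Python 3.11.15 with matplotlib 3.10.9 drew the figures.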

Additional observations from a re-analysis of the deposited data

How the results depend on the processing

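The rises of Id2 and Id3 with each hormone, and of Id1 with FGF19 against vehicle and against FGF15, kept their direction and their call under all 18 alternatives. The members that rose numbered 2 or 3 with FGF15, 3 to 5 with FGF19 and 1 for FGF19 against FGF15 under every alternative. The number that were lower with FGF19 than with FGF15 was 0, but 1, which was Id2, with quantile normalization, with the filter at the 50th percentile and with the mean of probe sets, and 0 to 1 when 1 array was left out. That 1 was Hamp, without FGF19 replicate 2, which also made the number that fell with FGF19 against vehicle 0 to 1. With quantile normalization Hamp reversed with FGF19, from -0.08 to 0.22. The cause was not tested. The genes called in all were 1218 with FGF15, 1313 with FGF19 and 416 between the hormones. They were 635, 731 and 163 without the intensity trend, and 551 to 1191, 614 to 1370 and 235 to 341 when 1 array was left out, where the lone array of its group is assumed to vary like the others. Id4 gave no value with the filter at the 50th percentile.

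Replicate numbers are shared by the groups, but no label says that they pair samples. Deviations of same-numbered arrays correlated at 0.08 for vehicle and FGF15, -0.02 for vehicle and FGF19 and 0.05 for FGF15 and FGF19. With the replicate block 1246, 1380 and 450 genes were called, and 2, 4 and 1 members rose. Limits of this series are 2 arrays per group, scaling that moves small differences, and probe sets that can bind related transcripts. Low signals of Id4 and Smad6 and high signals of Hamp are further limits. Id1 (58.7 to 89.0) and Smad7 (82.0 to 86.1) were also low on the vehicle arrays, in the range of Smad6 (49.0 to 90.9 over all arrays).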
